A study of Canis lupus familiaris with 34 samples.

Results

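Probe sets of 10 genes of the basement membrane network were examined: the nidogens NID1 and NID2, the laminin chains LAMA4, LAMA5, LAMB1 and LAMC1, the collagen IV chains COL4A1 and COL4A2, HSPG2 (perlecan) and SPARC. A probe set was taken where the platform annotation gave it 1 gene symbol and that symbol was one of the 10, which found 31 of the 42924 probe sets that were not array controls (10 of 15115 genes so named). LAMB1 had 9 probe sets, LAMA4 had 4, LAMC1, COL4A1 and HSPG2 had 3 each, NID1, NID2, COL4A2 and SPARC had 2 each and LAMA5 had 1. Values are log2 signals, so a difference of 1 is a 2-fold change, and a gene is given by its brightest probe set over all arrays unless another is named. Signals of different probe sets depend on their probes and were not ranked against each other.

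The basement membrane is the thin sheet of matrix on which endothelium and epithelium rest and which wraps fat, muscle and nerve cells. Laminins, built of 1 α, 1 β and 1 γ chain, and collagen IV, built of triple helices of α chains, assemble into separate networks, and the nidogens and the proteoglycan perlecan bind both. SPARC is a calcium-binding matricellular protein that binds collagens. In the vessel wall the laminin that holds the α4 chain is made widely by endothelial cells and the α5 chain is added as vessels mature.

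The arrays came from 34 dogs. Hemangiosarcoma (HSA), a malignant tumor of blood vessel-forming cells, was represented by 10 cell lines from splenic tumors, 6 of golden retrievers (ChadG4, ChadG6, ChadG8, Frog, Journey and Tucker) and 1 each of a Rottweiler (Joey), a Golden Retriever x Great Pyrenees (DD1), a Portuguese Water Dog (ChadP9) and a Dalmation (Dal4). Osteosarcoma was represented by 5 lines from bone tumors of golden retrievers, and splenic hematoma, a non-malignant lesion, by 3 low passage cultures of a Golden Retriever (Pippin), a Standard Poodle (Baxter) and a Keeshond (Kylie). The other 16 arrays held primary tumor cells: 1 acute lymphoblastic leukemia, 2 chronic lymphocytic leukemias, 6 diffuse large B cell lymphomas, 1 marginal zone B cell lymphoma and 6 T-zone lymphomas. Of these 16 dogs 15 were golden retrievers and 1 (Rascal) a Golden Retriever mix, whereas 4 of the 10 HSA lines came from other breeds, so that breed also differed between these groups. The labels name no treatment, each dog gave 1 array, and Frog and Journey were distant relatives. The HSA and hematoma cells had been grown under conditions that favor endothelial cells, whereas the leukemia and lymphoma cells had not been cultured, so that tumor type and culture cannot be told apart in that comparison.

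Markers of the labelled cell types were read beside the members. The endothelial markers PECAM1, CDH5 and TEK were below the median signal of the array on all 10 HSA arrays and all 3 hematoma arrays, VWF was above it on 1 HSA array and 0 hematoma arrays, and TIE1 on 3 HSA arrays and 0 hematoma arrays. CLDN5 was above it on 5 HSA arrays and 2 hematoma arrays, KDR on 8 HSA arrays and 2 hematoma arrays, and ERG on 8 HSA arrays and 3 hematoma arrays. On the 5 osteosarcoma arrays KDR was above the median on 5, ERG on 4, CLDN5 on 3 and the other 5 endothelial markers on 0. The mean of the 8 endothelial markers was 4.85 to 5.39 in HSA and 4.84 to 5.21 in hematoma, with a median of 5.27 and a highest value of 5.38 in osteosarcoma, while that of the 9 fibroblast and mural markers was 10.82 to 12.69 in HSA, 11.01 to 12.85 in osteosarcoma and 11.96 to 12.67 in hematoma. The 8 lymphocyte markers averaged 8.36 to 10.82 on the primary lymphoid arrays and 4.55 to 5.31 on the 18 culture arrays. The endothelial mean was 5.31 to 6.18 on the primary lymphoid arrays and 5.99 to 6.18 in leukemia, above every HSA line. The mean of 5 osteoblast markers was 4.77 to 5.20 in osteosarcoma, within the HSA range of 4.23 to 5.32, and 4.12 to 4.37 in hematoma. Of these 5 markers, 0 to 2 were above the array median on osteosarcoma arrays and 0 to 1 on HSA arrays. Actin signal at the 3′ end exceeded that at the 5′ end by 1.75 ± 0.38 in HSA (SD, n = 10), 2.64 ± 0.68 in osteosarcoma (SD, n = 5) and 1.15 ± 0.71 in hematoma (SD, n = 3). The same difference was 3.44 to 3.92 in leukemia (mean 3.65, n = 3) and −0.30 to 4.03 in lymphoma (mean 1.42, n = 13). The T-zone lymphomas spanned the whole of the lymphoma range. Hybridization control signals were 9.70 to 10.21 in HSA, 10.36 to 11.13 in osteosarcoma, 9.87 to 10.64 in hematoma and 10.49 to 11.69 on the primary lymphoid arrays.

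Against osteosarcoma, the HSA lines had higher levels of the laminin β1 and γ1 chains, whereas collagen IV, perlecan and SPARC did not pass the test. With limma, a linear model with a moderated variance, fitted to all probe sets that were above the array median on enough arrays, and with Benjamini-Hochberg adjustment over all of them, 2 of the 9 members other than NID1 were higher (LAMB1 and LAMC1) and 0 were lower at an adjusted p under 0.05. NID1 was left out of the counts because its HSA values took part in choosing the set. Of the 22891 probe sets tested 27.8% passed (16.1% higher and 11.7% lower). The share of members, 2 of 9, was near that of all probe sets and is not read as a trait of the set. Some of the dimmer probe sets exceeded the array median mainly in HSA, so probe sets were counted in a fit with no filter: 9 of all 29 were higher, 5 of LAMB1, 3 of LAMC1 and 1 of NID2, where 10.0% of 42924 were higher. Probe sets of the same gene are not independent, so these 9 are not 9 separate results. The median log2 difference over the 9 members was +0.51, beside +0.029 over all probe sets tested. The hybridization controls and the 3′ excess of actin also differed between these groups, as given above, and their part in these differences was not tested.

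The primary lymphoid tumors had low signals of most members. With a filter, a member low in these tumors would be tested only because it is high in HSA (NID2 exceeded the array median on 10 of 10 HSA arrays and 0 of 16 lymphoid arrays), so the members were counted in a fit with no filter. At an adjusted p under 0.001, 8 of the 9 members other than NID1 were higher in HSA and LAMA5 did not pass, where 13.2% of all 42924 probe sets were higher. The median log2 difference over the 9 was +5.46, beside −0.14 over all. Among the 23215 probe sets that passed the filter, 20.2% were higher and 38.6% passed in either direction. Osteosarcoma lines, set against the hematoma cultures at an adjusted p under 0.1, had 4 of the 9 members other than NID1 lower (LAMA4, LAMB1, LAMC1 and COL4A1) and 0 higher, where 8.12% of 23091 probe sets were lower and 13.3% passed. With no filter 14 of their 29 probe sets were lower, where 4.47% of all were, and probe sets of the same gene are again not independent. NID1 is not counted here, because its difference rests on the hematoma arrays through which it entered the set. The median over the 9 members was −1.84 and that over all tested +0.0086. These calls rested on few arrays: of the 9, without the hematoma Kylie 0 passed, without Baxter 2 did, and without OSCA23 or OSCA59 3 did. In the order given, the numbers of all probe sets that passed without Kylie, Baxter, OSCA23 or OSCA59 were 219, 553, 1297 and 1326, against 3076 with all arrays. The mean 3′ excess of actin was 2.64 in osteosarcoma and 1.15 in hematoma. Kylie had the lowest of all cultures (0.36) and the highest hybridization control signal of the hematomas (10.64). The part of both in these calls was not tested.

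The set was chosen by earlier results on these arrays, in which the dimmer NID1 probe set stood out between HSA and hematoma, so that this comparison is given for the members as a description without a test. All 10 members had a lower mean in HSA than in hematoma, with a median log2 difference of −1.02, beside +0.016 over all 23336 probe sets tested. The share of all probe sets with a lower mean was not counted. LAMA5 (−0.014), SPARC (−0.066) and HSPG2 (−0.13) differed little. Without Kylie, LAMB1 (+0.038) and HSPG2 (+0.24) turned positive, as did LAMA5 (+0.023) without Tucker, so the shared direction depended on single arrays. By the rule used for the other probe sets, an adjusted p under 0.1, 0.266% of them passed, from which nothing is read for the members.

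**Figure D1:**
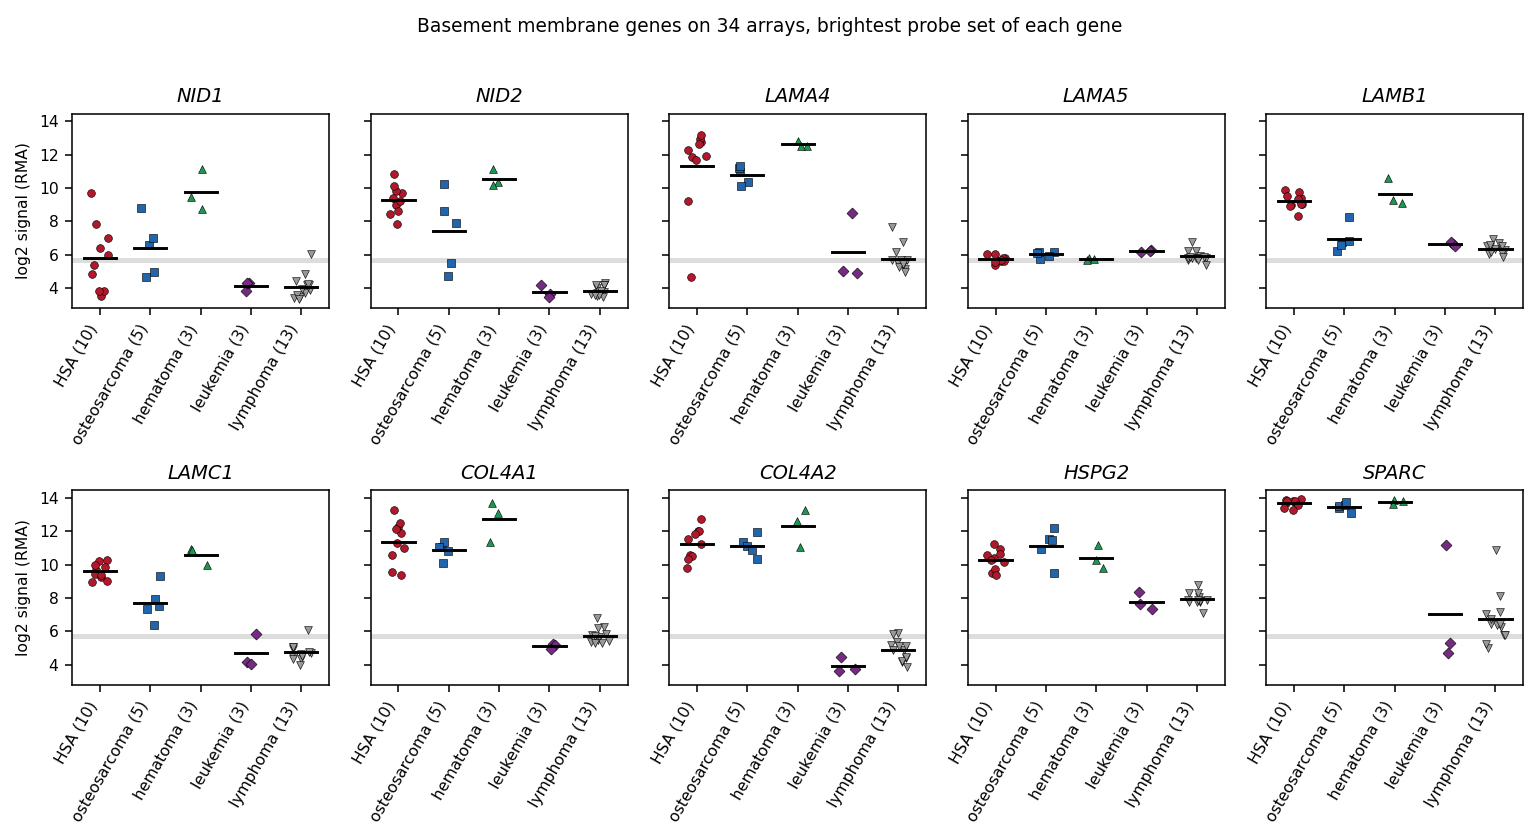
Log2 signal of the brightest probe set of each of the 10 genes on 34 arrays, by group, with the number of arrays in parentheses. Each point is 1 array, black lines are group means and the gray band spans the array medians (5.57 to 5.77). The 3 hematoma cultures sit above 9 of the 10 HSA lines for NID1, and LAMA5 stays near the gray band on all arrays but that of the lymphoma Fire (6.75).

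NID1 encodes nidogen-1, a glycoprotein that links the laminin γ1 chain to collagen IV. It varied widely among the HSA lines and was high in all hematoma cultures. Its lowest, median and highest log2 signals in HSA were 3.52, 5.67 and 9.68, against 8.75, 9.45 and 11.11 in the hematomas Pippin, Baxter and Kylie. The highest HSA line, ChadP9 at 9.68, exceeded 8.75 and 9.45 in Pippin and Baxter, and the other 9 lines (3.52 to 7.82) lay below every hematoma. Means were 5.82 ± 1.98 in HSA and 9.77 ± 1.21 in hematoma (SD, n = 10 and 3), a difference of −3.94 (SE 1.11) or 15.4-fold lower. The dimmer probe set gave 3.85 ± 0.92 in HSA and 6.81 ± 1.32 in hematoma, a difference of −2.96 (SE 0.60). On it 9 of 10 HSA lines again lay below every hematoma.

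The 5 osteosarcoma lines OSCA20, OSCA23, OSCA59, OSCA75 and OSCA71 had NID1 signals of 8.79, 6.55, 7.01, 4.67 and 4.98. They overlapped the HSA lines through most of the range, and the HSA mean was −0.58 relative to osteosarcoma (SE 0.94), a difference that turned to +0.020 without OSCA20. Of the osteosarcoma lines, 4 lay below every hematoma, and the difference of osteosarcoma from hematoma was −3.37 on the brighter and −3.14 on the dimmer probe set. No p is given for NID1, because it entered the set through its values on the HSA and hematoma arrays. On the primary lymphoid arrays NID1 was 3.32 to 4.82 on 15 of 16, below every array median, and 6.04 in the T-zone lymphoma Rose. The HSA lines ChadG4, ChadG6 and Dal4, at 3.52, 3.84 and 3.79, fell within that lymphoid range.

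NID2 encodes nidogen-2, a homolog of nidogen-1 that also binds laminin and collagen IV. It was present in every HSA line, including those with the lowest NID1. Its lowest, median and highest signals in HSA were 7.84, 9.29 and 10.83, against 10.33, 10.18 and 11.11 in the 3 hematomas and 3.45 to 4.29 on the 16 primary lymphoid arrays. ChadP9 exceeded 2 hematomas and the other 9 lines exceeded none, and the mean was 9.29 ± 0.88 in HSA and 10.54 ± 0.50 in hematoma (SD, n = 10 and 3), a difference of −1.25 (SE 0.50). Against the lymphoid arrays HSA was higher by +5.46 (SE 0.23, limma adjusted p = 4.67e-17 with no filter), with all 10 lines above all 16 arrays.

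In osteosarcoma the 2 NID2 probe sets disagreed. The brighter one read 4.71, 7.90, 5.48, 10.26 and 8.63 in OSCA20, OSCA23, OSCA59, OSCA75 and OSCA71, a range of 5.55, whereas the dimmer one read 5.09, 5.17, 4.89, 5.75 and 4.82 in the same lines. In OSCA75 the brighter minus the dimmer was 4.51, while in HSA this difference was 0.47 to 1.89 and in hematoma 0.88 to 1.13. On the dimmer probe set all 10 HSA lines (7.17 to 9.91) lay above all 5 osteosarcoma lines, which fell among or close to the primary lymphoid arrays (4.48 to 5.35).

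HSA exceeded osteosarcoma by +3.17 on the dimmer probe set (SE 0.42, limma adjusted p = 0.000226 with no filter) and by +1.90 on the brighter (SE 0.73, adjusted p = 0.0646), which did not pass. The dimmer probe set exceeded the array median on 10 HSA arrays and 1 of 5 osteosarcoma arrays (OSCA75), and so passed the filter through HSA. The brighter one passed without OSCA75 (+2.61, adjusted p = 0.0118) and with the mean of both probe sets (+2.54, adjusted p = 0.00239). Where the probes of each set lie along the transcript was not analysed here. The 3′ excess of actin was larger in osteosarcoma than in HSA, and its part in this disagreement was not tested. Osteosarcoma minus hematoma was −3.14 on the brighter (adjusted p = 0.129, not passed) and −4.38 on the dimmer probe set (SE 0.28, adjusted p = 0.0011 with no filter).

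**Figure D2:**
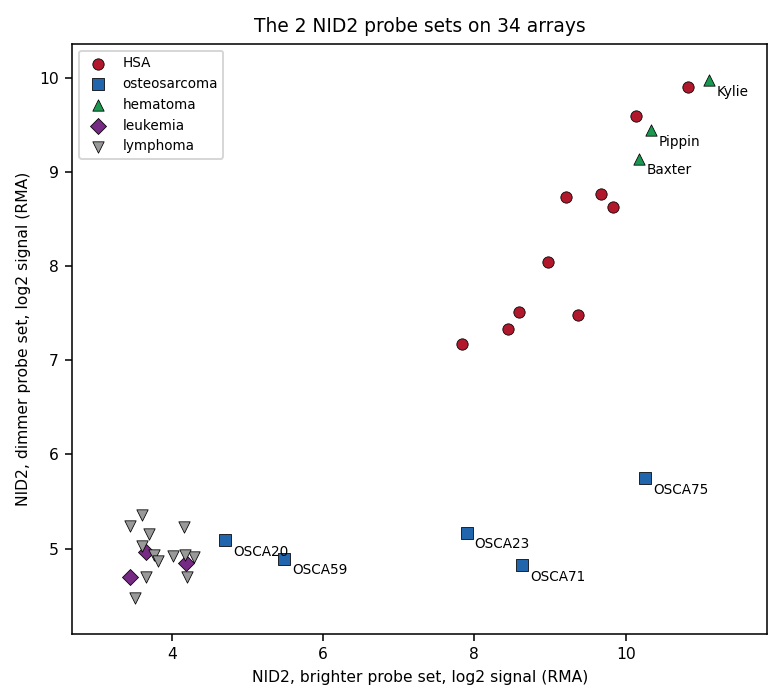
Log2 signal of the dimmer NID2 probe set (vertical axis) against the brighter one (horizontal axis), each point 1 of 34 arrays. HSA and hematoma arrays are high on both, whereas OSCA75, OSCA71 and OSCA23 are high on the brighter probe set and between 4.82 and 5.75 on the dimmer one.

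Setting the nidogens against each other on the same array gave the contrast between the groups. NID1 minus NID2, from their brighter probe sets, was below 0 in all 10 HSA lines, with a lowest, median and highest of −6.35, −3.11 and −1.15. In the hematomas Pippin, Baxter and Kylie it was −1.58, −0.73 and 0.00044, and on the 16 primary lymphoid arrays, where both genes were low, −0.89 to 1.84. The zero of this scale depends on the probes of both genes, so that the sign within a group is not interpretable. Differences between groups also depend on the probe set where the 2 NID2 probe sets disagreed. Brighter minus dimmer averaged 0.97 ± 0.40 in HSA and 1.02 ± 0.12 in hematoma (SD, n = 10 and 3). It was 2.25 ± 2.09 in osteosarcoma and −1.11 ± 0.38 on the primary lymphoid arrays (SD, n = 5 and 16).

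Mean NID1 minus NID2 was −3.47 ± 1.59 in HSA and −0.77 ± 0.79 in hematoma (SD, n = 10 and 3), described without a test. In osteosarcoma it was 4.08, −1.35, 1.52, −5.59 and −3.64 in OSCA20, OSCA23, OSCA59, OSCA75 and OSCA71. On these brighter probe sets the lines spanned most of the HSA and all hematoma values and reached above both. HSA minus osteosarcoma was −2.47, given without a p because the NID1 values in HSA took part in choosing the set. With the mean of each gene's probe sets it was −2.73, without OSCA75 −3.62 and without OSCA20 −1.20, so that its size depended on single lines. The osteosarcoma lines with the highest NID1, OSCA20 and OSCA59, had the lowest NID2 on the brighter probe set, and OSCA75, with the lowest NID1, had the highest. On the dimmer NID2 probe set the lowest were OSCA71 (4.82) and OSCA59 (4.89), followed by OSCA20 (5.09).

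**Figure D3:**
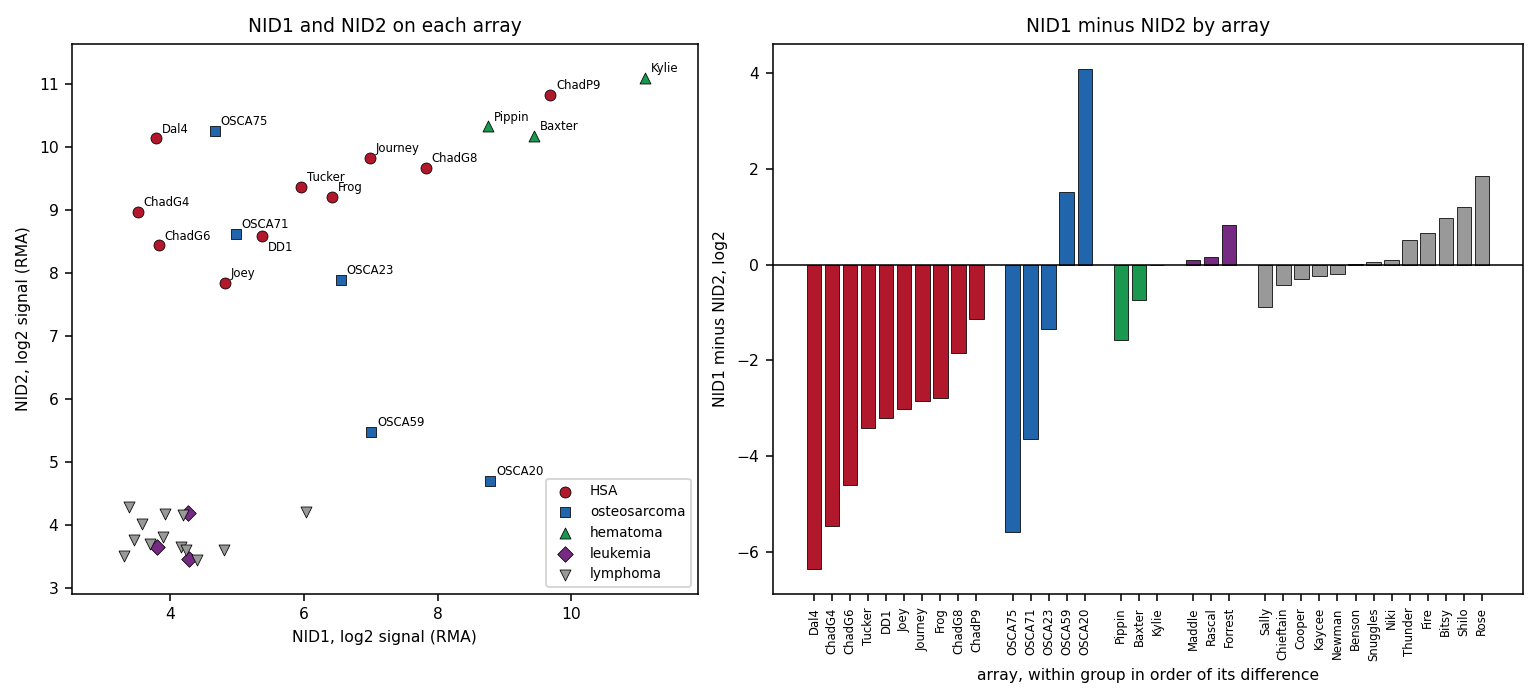
Left, NID2 against NID1 log2 signal on each of 34 arrays, with culture lines named. Right, NID1 minus NID2 on each array, in order within its group, with all 10 HSA lines below 0 and osteosarcoma lines from −5.59 to 4.08.

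LAMA4, the laminin α4 chain of vessel, muscle and fat basement membranes, was high in 8 HSA lines and much lower in the other 2. Its lowest, median and highest signals in HSA were 4.67, 12.07 and 13.14, with 4.67 in Dal4 and 9.23 in ChadP9, and 11.67 to 13.14 in the other 8. The hematomas read 12.52, 12.54 and 12.81 and the osteosarcoma lines 10.95, 11.18, 11.31, 10.36 and 10.12. All 4 LAMA4 probe sets placed Dal4 lowest (4.67, 4.59, 4.12 and 3.59) and ChadP9 next (9.23, 9.90, 8.75 and 8.33) among HSA lines. In Dal4 the signal of the brightest was below the array median and below all 16 primary lymphoid arrays, while several other members lay within the range of the remaining lines there: LAMB1 was 9.05, LAMC1 9.97 and SPARC 13.39.

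HSA minus osteosarcoma for LAMA4 was +0.51 with all lines (SE 1.08, limma adjusted p = 0.756), +1.59 with the 6 golden retriever lines (adjusted p = 0.0096) and +1.60 without Dal4 and ChadP9 (adjusted p = 0.00209), the last chosen after the values were seen. Of the 10 HSA lines, 8 lay above all osteosarcoma lines and 2 below on this probe set. On the second, about as bright, OSCA59 (12.18) exceeded ChadG6 (12.09) and Tucker (12.16). With all lines the difference was +0.057 to +1.32 over the 4 probe sets, of which 0 passed. Osteosarcoma was lower than hematoma, at a difference of −1.84 (SE 0.31, adjusted p = 0.0262), with all 5 lines below all 3 hematomas on each of the 4 probe sets. HSA minus hematoma was −1.33 (SE 1.39), and 6 HSA lines were below, 2 within and 2 above the hematomas.

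LAMB1, the laminin β1 chain, was higher in HSA than in osteosarcoma on its 5 brightest probe sets. Its lowest, median and highest signals in HSA were 8.30, 9.19 and 9.86, against 8.26, 6.78, 6.83, 6.20 and 6.60 in osteosarcoma and 9.27, 9.07 and 10.59 in hematoma. The lowest HSA line, ChadG4 at 8.30, lay just above the highest osteosarcoma line, OSCA20 at 8.26, and the other 4 osteosarcoma lines lay between 6.20 and 6.83. The difference was +2.27 (SE 0.30, 4.83-fold, limma adjusted p = 0.000127). The next 4 probe sets gave +1.02, +1.20, +1.72 and +3.45 with adjusted p of 0.0126, 0.00567, 0.000858 and 0.000193 with no filter, so that all 5 passed. The remaining 4 LAMB1 probe sets exceeded the array median on 0 HSA arrays, and with no filter 0 of them passed.

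Osteosarcoma was lower than hematoma for LAMB1, at a difference of −2.71 (SE 0.50, limma adjusted p = 0.031), and all 5 lines lay below all 3 hematomas on each of the 5 brighter probe sets. HSA minus hematoma was −0.43 (SE 0.34) and the groups overlapped. On the primary lymphoid arrays the brightest probe set read 5.85 to 6.95, while the second read 3.37 to 5.38 on 15 arrays and 7.87 in the acute lymphoblastic leukemia Rascal. Rascal also stood above the other 15 on the next 2 probe sets by brightness, at 8.35 and 6.87 against at most 4.38 and 4.70.

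LAMC1, the laminin γ1 chain that carries the nidogen-binding site, was the other member higher in HSA than in osteosarcoma. Its lowest, median and highest signals in HSA were 8.94, 9.57 and 10.29, against 9.32, 7.91, 7.31, 7.49 and 6.36 in osteosarcoma and 9.97, 10.91 and 10.89 in hematoma. OSCA20, at 9.32, lay within the HSA range, and 7 of 10 HSA lines exceeded all osteosarcoma lines. The difference was +1.93 (SE 0.36, 3.8-fold, limma adjusted p = 0.00154), and the other 2 probe sets gave +2.26 and +2.10 (adjusted p = 0.00113 and 0.00185 with no filter). Osteosarcoma was lower than hematoma, at a difference of −2.91 (SE 0.58, adjusted p = 0.0356), with all 5 lines below all 3 hematomas. HSA minus hematoma was −0.99 (SE 0.30), with 7 of 10 HSA lines below the lowest hematoma.

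OSCA20 stood at the top of the osteosarcoma lines on the brightest probe sets of NID1, LAMB1 and LAMC1. For LAMB1, OSCA71 was highest on the second probe set (9.98, against 9.43 in OSCA20) and on the third (10.17, against 9.97). LAMA5, the laminin α5 chain found in mature vessels and epithelium, had no group with a high signal: it was 5.39 to 6.05 in HSA, 5.75 to 6.18 in osteosarcoma, 5.69 to 5.80 in hematoma and 5.41 to 6.75 on the primary lymphoid arrays, where Fire was the highest. HSA minus osteosarcoma was −0.30 (SE 0.13, limma adjusted p = 0.0898) and HSA minus primary lymphoid −0.24 (SE 0.12, adjusted p = 0.0734 with no filter), neither of which passed. LAMA5 had no other probe set against which these values could be checked.

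**Figure D4:**
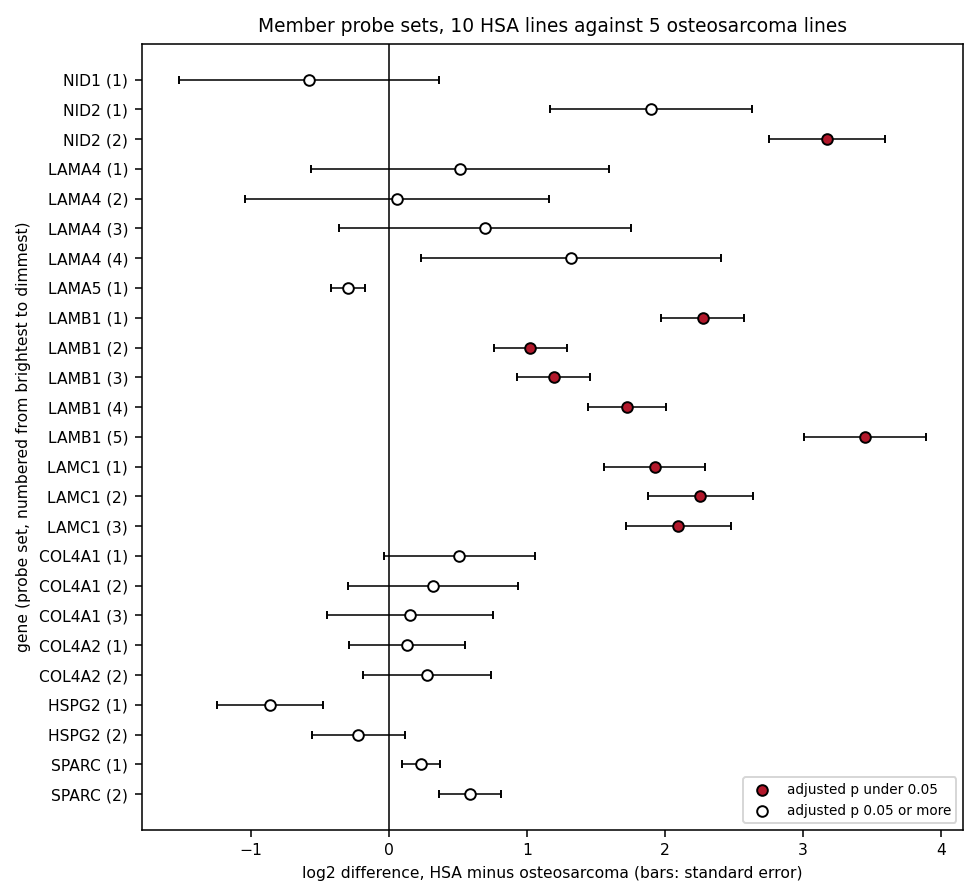
Log2 difference of HSA minus osteosarcoma for the 25 member probe sets tested, numbered within each gene from brightest to dimmest, with bars of 1 standard error. Filled points passed the adjusted p threshold of 0.05: 5 probe sets of LAMB1, 3 of LAMC1 and 1 of NID2, all above 0.

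COL4A1 and COL4A2 encode the α1 and α2 chains that join in the most widespread collagen IV helix, and the genes lie side by side on chromosome 22 of the UU_Cfam_GSD_1.0 dog assembly. Both varied among HSA lines and did not pass against osteosarcoma. COL4A1 had a lowest, median and highest of 9.40, 11.58 and 13.26 in HSA, against 11.05, 10.07, 11.34, 10.82 and 11.04 in osteosarcoma and 11.35, 13.06 and 13.69 in hematoma. COL4A2 had 9.82, 11.38 and 12.74 in HSA, against 11.37, 10.33, 11.94, 11.11 and 10.87 in osteosarcoma and 11.07, 12.59 and 13.26 in hematoma. Joey and ChadG4 had the lowest COL4A1 among HSA lines (9.40 and 9.52), below every osteosarcoma line, and ChadP9 had the highest of both genes (13.26 and 12.74).

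HSA minus osteosarcoma was +0.51 for COL4A1 (SE 0.55, limma adjusted p = 0.516) and +0.13 for COL4A2 (SE 0.42, adjusted p = 0.844). The second value turned to −0.033 without ChadP9 and −0.067 without OSCA23. Osteosarcoma was lower than hematoma for COL4A1, at a difference of −1.84 (SE 0.51, adjusted p = 0.0696). All 5 lines lay below all 3 hematomas on the brightest probe set, OSCA59 (11.34) only just below Pippin (11.35). On the second, OSCA20 (10.42) and OSCA59 (10.34) exceeded Pippin (10.30). With the filter all 3 COL4A1 probe sets passed, and with none the second did not (limma adjusted p = 0.115). COL4A2 did not pass at −1.18 (SE 0.51, adjusted p = 0.185). HSA minus hematoma was −1.32 (SE 0.75) for COL4A1 and −1.05 (SE 0.58) for COL4A2. Relative to the primary lymphoid arrays, where COL4A1 was 4.95 to 6.81, both were higher in HSA, by +5.75 (adjusted p = 5.62e-14 with no filter) and +6.56 (adjusted p = 4.68e-16 with no filter).

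HSPG2, the core protein of perlecan, had a higher mean in osteosarcoma than in HSA or hematoma. It read 9.36, 10.33 and 11.24 at its lowest, median and highest in HSA, against 11.55, 11.49, 12.21, 10.94 and 9.49 in osteosarcoma and 9.79, 10.28 and 11.16 in hematoma. HSA minus osteosarcoma was −0.86 (SE 0.39, limma adjusted p = 0.109), which did not pass with all lines and passed without OSCA71, the lowest osteosarcoma line (−1.27, adjusted p = 0.0113). HSA minus hematoma was −0.13 (SE 0.38), and HSA was higher than the primary lymphoid arrays (7.10 to 8.79) by +2.37 (adjusted p = 6.35e-11 with no filter). Of the 3 HSPG2 probe sets the dimmest did not exceed the array median on enough arrays to be tested.

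SPARC was near the top of the signal range in every culture, at 13.29 to 13.91 in HSA, 13.10 to 13.77 in osteosarcoma and 13.63 to 13.85 in hematoma. HSA minus osteosarcoma was +0.24 (SE 0.14, limma adjusted p = 0.21) and HSA minus hematoma −0.066 (SE 0.15). HSA was higher than the primary lymphoid arrays by +6.91 (SE 0.57, adjusted p = 1.08e-10 with no filter). On those arrays SPARC was 4.67 to 8.12 on 14 of 16, and 11.16 in the chronic lymphocytic leukemia Maddle and 10.90 in the diffuse large B cell lymphoma Snuggles.

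Within the primary lymphoid arrays the members were mostly low, with single arrays standing apart. Snuggles had the highest COL4A1 (6.81) and COL4A2 (5.89), and its fibroblast and mural markers averaged 8.63, the highest among the primary arrays. COL1A1 was 10.37 and DCN 10.77 there, against 4.31 and 5.04 in Maddle, in which SPARC was about as high. Of 4 platelet genes, chosen after the values were seen, PPBP was 7.17 in Maddle and 5.15 in the other chronic lymphocytic leukemia, Forrest, whose SPARC was 4.67. The other 3 were higher in Forrest: ITGA2B was 9.63 in Maddle and 11.75 in Forrest, GP9 8.62 in Maddle and 9.76 in Forrest, and GP1BA 8.16 in Maddle and 9.84 in Forrest. The T-zone lymphoma Shilo had the second highest LAMA4 (7.67) after Rascal (8.49), and its COL1A1 was 7.73, against 4.52 in Rascal. The part of other cells in these values was not tested, and in such samples more cells of a type and more RNA per cell cannot be told apart.

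Leukemias set against lymphomas gave no call among the members: of 6 tested, 0 passed an adjusted p under 0.05, where 2.12% of 24921 probe sets did (528, and 5425 at an unadjusted p under 0.05). T-zone lymphomas, set against diffuse large B cell lymphomas, likewise had 0 of 4 members past that threshold, where 18.4% of 21792 probe sets were (9.31% higher and 9.13% lower). Without Snuggles, SPARC passed there at +1.15 (limma adjusted p = 0.0373), with 6.39 to 8.12 in T-zone lymphoma and at most 6.42 in the other 5 diffuse large B cell lymphomas. Golden retriever HSA lines had 0 of 10 members different from the other-breed lines at an adjusted p under 0.1, as had 0 of all 22237 probe sets (742 at an unadjusted p under 0.05). LAMA4 had the largest difference among the members there, +2.68 (SE 1.30, adjusted p = 0.999), with means of 12.37 ± 0.64 in 6 golden retriever lines and 9.69 ± 3.67 in 4 other lines (SD), among them Dal4 and ChadP9.

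The members differed in how much they varied among the 10 HSA lines. The SD over lines was 2.58 for LAMA4 and 1.98 for NID1, which 0.133% and 0.63% of the 23336 probe sets tested against hematoma exceeded. COL4A1 (1.27), COL4A2 (0.92) and NID2 (0.88) followed, whereas LAMC1 (0.47) and LAMB1 (0.46) were closer to the median SD of 0.36, and SPARC (0.21) and LAMA5 (0.20) were below it. Joey had the lowest signal of NID2, COL4A1, COL4A2, HSPG2 and SPARC, and ChadP9 the highest of NID1, NID2, COL4A1 and COL4A2.

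Of 6 pairs of members examined over the 10 HSA lines, 1 passed an adjusted p under 0.05. COL4A1 and COL4A2 had a Pearson r of 0.93 (permutation p = 7.00e-05, adjusted over the 6 pairs 0.00042) and a Spearman rho of 0.95 (permutation p = 0.0001, adjusted 0.0006). Without Joey and ChadG4, the 2 lines farthest from the COL4A1 median, r was 0.97 over 8 lines (permutation p = 0.00021). NID1 and NID2 had r = 0.62 (permutation p = 0.0545, adjusted 0.163) and rho = 0.52 (permutation p = 0.135, adjusted 0.406), and r = 0.24 (permutation p = 0.562) without ChadP9 and ChadG8, so that the relation rested on those lines. The 4 pairs with LAMC1 had r between −0.33 and 0.29, with permutation p from 0.395 to 0.672, adjusted 0.591 to 0.672. For LAMB1 and LAMC1, which join in the same laminin trimers, r was −0.25 and rho −0.10 (permutation p adjusted over the 6 pairs = 0.591 and 0.785).

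**Figure D5:**
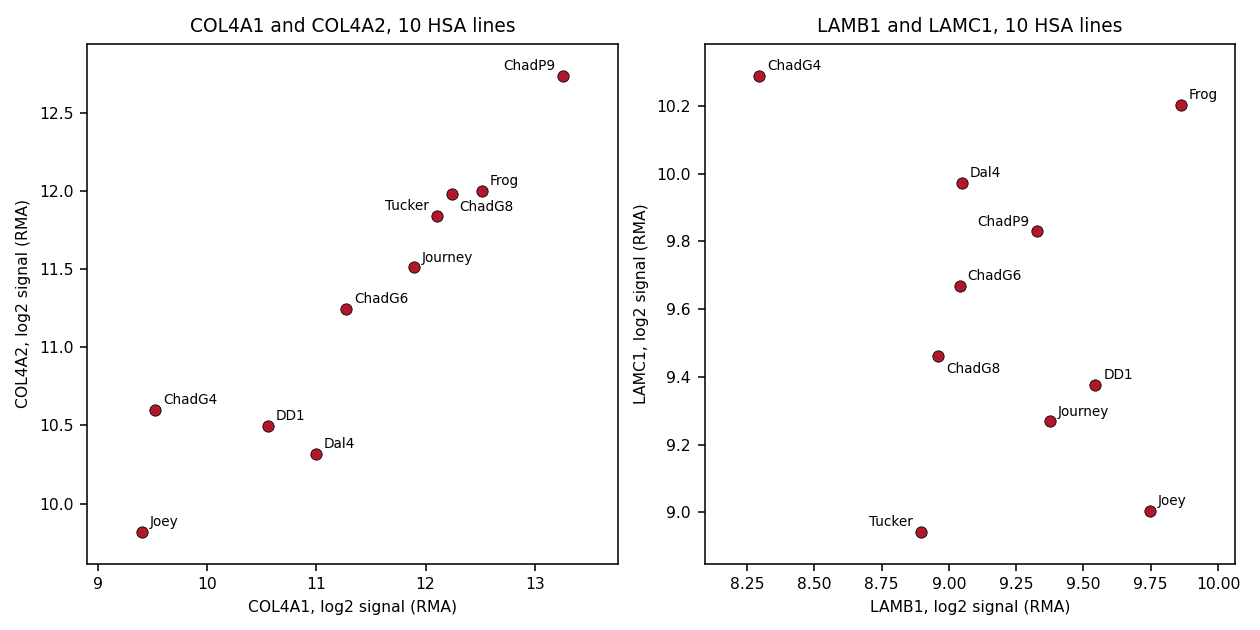
Log2 signals of COL4A2 against COL4A1 (left) and of LAMC1 against LAMB1 (right) in the 10 HSA lines, each point 1 named line. The collagen IV genes lie along a rising band from Joey to ChadP9 (r = 0.93), whereas the laminin chains show no such band (r = −0.25).

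The 18 culture arrays differ in tumor type and breed, and the culture conditions of the osteosarcoma lines are not given here. Over these arrays, the genes whose signal was most like that of NID1 among 9161 genes were ASPN, a small leucine-rich matrix proteoglycan (r = 0.79), KCNMB1, a potassium channel subunit of smooth muscle (0.78), PAPSS2, an enzyme of sulfate donor synthesis (0.78), EPAS1, a hypoxia-inducible transcription factor (0.77), and WDR1, an actin-disassembly factor (0.77). COL4A2 and COL4A1 came close behind, at 0.76 and 0.74, with 5 and 13 genes above them. NID2 was not among them, at 0.16. The genes most like NID2 were MARCHF3, a ubiquitin ligase (r = 0.86), EED, a Polycomb subunit (0.78), the interferon-induced IFI44 (0.75), the adhesion molecule ALCAM (0.74) and TRAPPC6B, of a vesicle tethering complex (0.74). These are descriptions over arrays of 3 groups and have no test.

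Of 63 other genes of basement membrane assembly, binding and turnover in 6 lists, 57 had a probe set of their own. Between HSA and hematoma 1 of 41 tested (2.44%) passed, the collagen and laminin receptor subunit ITGA2 (integrin α2), with 10.91 ± 0.75 in HSA and 8.78 ± 0.54 in hematoma (SD, n = 10 and 3; +2.13, limma adjusted p = 0.0981). That call sat at the threshold of 0.1 and was lost in 17 of 21 other settings. Against osteosarcoma, 13 of 41 passed (31.7%), 6 higher and 7 lower, a share near the 27.8% of all probe sets tested.

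Among the 12 receptors, all tested, 3 were higher in HSA and 0 lower, with a list median of +0.10 beside +0.029 over all probe sets. They were ITGA2 (10.91 ± 0.75 in HSA and 8.31 ± 0.41 in osteosarcoma, +2.59, limma adjusted p = 0.000127), the laminin receptor subunit ITGA7 (9.68 ± 1.43 in HSA and 6.76 ± 0.88 in osteosarcoma, +2.92, adjusted p = 0.00406) and, named after its values were seen, their shared β1 partner ITGB1 (12.78 ± 0.39 in HSA and 11.38 ± 0.75 in osteosarcoma, +1.40, adjusted p = 0.0019; SD, n = 10 and 5). Of 2 other laminin chains tested, LAMB2, the β2 chain, was lower in HSA (8.57 ± 0.63 in HSA and 10.17 ± 0.81 in osteosarcoma, −1.60, adjusted p = 0.00405), opposite in sign to LAMB1.

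Of 4 other basement membrane collagens, COL7A1, of the anchoring fibrils, was higher in HSA by +2.52 (limma adjusted p = 0.00413). Of 8 other glycoproteins and proteoglycans 3 were lower, among them the SPARC relative SMOC2 (4.93 ± 1.71 in HSA and 8.65 ± 0.31 in osteosarcoma, −3.72, adjusted p = 0.00172) and agrin, AGRN (−0.55, adjusted p = 0.012). The HSA mean of SMOC2 lay below every HSA array median (5.62 to 5.68), so SMOC2 passed the filter through osteosarcoma. Its call was kept in all 23 other settings, among them the fit with no filter. The SMOC2 difference was −4.25 without ChadG6. Of 11 genes of collagen IV processing and crosslinking, the prolyl hydroxylase subunit P4HA2 was higher (+0.78, adjusted p = 0.0226), and the crosslinking oxidase LOXL4 (−2.04, adjusted p = 0.00824) and the lysyl hydroxylase PLOD3 (−0.55, adjusted p = 0.0172) were lower. Of 4 degrading enzymes, the membrane metalloproteinase MMP14 was higher (+1.34, adjusted p = 0.0271) and the protease cathepsin S, CTSS, lower (−2.48, adjusted p = 0.00225). MMP14 no longer passed without OSCA23, OSCA59 or OSCA75, nor P4HA2 without OSCA71. With golden retriever lines only, AGRN (adjusted p = 0.0516), PLOD3 (0.0682) and MMP14 (0.124) did not pass, nor did P4HA2 (0.137) and PLOD3 (0.0636) with 1 fit over all arrays.

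Osteosarcoma set against hematoma gave 5 calls among 39 list genes tested (12.8%, near the 13.3% of all probe sets), on the same hematoma arrays as above: LAMB2 (+1.54, limma adjusted p = 0.075), SMOC2 (+4.13, adjusted p = 0.000387), PLOD3 (+1.09, adjusted p = 0.0275) and the syndecan SDC4 (+1.28, adjusted p = 0.0346) were higher and ITGB1 (−1.80, adjusted p = 0.0501) lower. Without Kylie, SMOC2 alone of these 5 passed. Here too SMOC2 passed the filter through its high osteosarcoma signal. Against the primary lymphoid arrays, with no filter, 25 of 57 list genes were higher in HSA, where 13.2% of all probe sets were: 10 of 11 processing genes were higher and 0 lower, led by LOXL2 (+7.37) and P4HA2 (+6.44), and 7 of 12 receptors were higher and 0 lower, led by ITGA2 (+5.33) and ITGA1 (+3.98). COL15A1 (+5.82), FBLN2 (+6.51), MMP2 (+4.98) and NTN4 (+3.67) were also higher, and the lymphoid arrays had more CTSS (−6.46 in HSA) and heparanase, HPSE (−2.96), all with a limma adjusted p under 0.001. Among the primary tumors, 3 of 40 list genes tested passed for leukemia against lymphoma (7.50%, beside 2.12% of all): leukemias exceeded lymphomas in LAMB2 (+1.75, adjusted p = 0.0358), COL15A1 (+1.31, adjusted p = 0.0375) and the laminin receptor subunit ITGA6 (+4.27, adjusted p = 0.0336). Each of these 3 calls was lost without Forrest or without Newman. LAMB2 was also lost without Rascal, Benson or Kaycee, and ITGA6 without Maddle or Cooper. COL15A1 was also lost without Rascal, Maddle, Cooper, Sally, Kaycee, Snuggles or Bitsy, and with 1 fit over all arrays. For T-zone against diffuse large B cell lymphoma 3 of 30 passed (10.0%, below the 18.4% of all): T-zone lymphomas had more PLOD1 (+1.77, adjusted p = 0.000502) and the collagen receptor DDR1 (+1.80, adjusted p = 0.00725) and had less HPSE (−2.25, adjusted p = 0.00466). The leukemias had a larger mean 3′ excess of actin than the lymphomas, and the T-zone lymphomas varied widely in it, as given above. Its part in the calls among primary tumors was not tested. Golden retriever and other-breed HSA lines had 0 calls among 38 list genes tested.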

How the data were processed

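RNA of 34 canine samples had been hybridized to Affymetrix Canine_2 arrays, 1 array per dog. The authors summarized the scans into log2 signals per probe set with RMA in the affy package, which corrects background, gives all arrays 1 distribution and fits each probe set by median polish. Their versions are not given in the sources used here, nor is whether all arrays went through 1 run. The deposited table held 43035 rows, of which 111 controls were left out, and no further normalization was applied. Gene symbols came from the platform annotation: 29254 probe sets had 1 symbol, 439 several and 13231 none. Array signals carry no read depth, so the number of arrays limits the precision.

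Groups were taken from the tumor type labels. Linear models were fitted with limma 3.58.1 in R 4.3.3 for each of 7 comparisons, on probe sets whose signal exceeded the array median on a number of arrays no lower than the size of the smaller group, with Benjamini-Hochberg adjustment over all of them. The p-values measure the spread between dogs as sampled. The adjusted p thresholds were 0.1 for comparisons with hematoma and between breeds, 0.05 for HSA against osteosarcoma and among primary tumors, and 0.001 for HSA against primary lymphoid tumors. Counts over the members against lymphoid tumors, and over all their probe sets, came from fits with no filter. No p is given for NID1 or NID1 minus NID2 between groups. Pairs of genes were tested by 100000 permutations. The fits were tested on simulated data. Named list genes were at most 2 per direction per list and comparison among those past the threshold, and ITGB1 was added after its values were seen. The members and lists were chosen with earlier results of these data known. Alternatives were no filter, another prior, other normalizations, 1 fit over all arrays, the mean of a gene's probe sets, golden retriever lines only, and leaving out each array. Of the 10 genes, 9 matched the RefSeq gene table (assembly UU_Cfam_GSD_1.0) by gene number. Sequences were not used here. The paper describes 1 sample run on 2 chips, which could not be matched to an array, and the highest correlation between 2 arrays was 0.985. Figures were drawn with matplotlib 3.10.9.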

Additional observations from a re-analysis of the deposited data

Results flagged for a closer look

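In groups of 4 to 10 arrays, a member was looked at again where 1 array lay far from the nearest of the others relative to the range of its group. Of 40 such groups 6 had one, and chance flags about 1 in 20. LAMA4 was 4.67 in the HSA line Dal4, where the next lowest line was at 9.23. Among T-zone lymphomas, LAMA4 was 7.67 in Shilo (next highest 6.15), HSPG2 was 8.32 in Shilo (next highest 7.90) and LAMA5 was 6.75 in Fire (next highest 5.89). Among diffuse large B cell lymphomas, LAMC1 was 6.09 in Kaycee (next highest 4.93) and SPARC was 10.90 in Snuggles (next highest 6.42).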

How the results depend on the processing

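With 1 fit over all 34 arrays, the probe sets that passed numbered 182 for HSA against hematoma (62 in the separate fit), 5225 for osteosarcoma against hematoma (3076) and 5020 for leukemia against lymphoma (528). In that fit 1 member, HSPG2, was lower in HSA than in osteosarcoma. With golden retriever HSA lines only, 3627 probe sets passed against osteosarcoma (6373). NID1 minus NID2 between HSA and osteosarcoma was −2.73 with the mean of the probe sets. Without the 2 HSA lines farthest from the median, r turned to 0.010 for LAMA4 and LAMC1 and to −0.069 for NID2 and LAMC1. The cause was not tested in these cases.

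Leaving out 1 array at a time, 7 (without Baxter) to 200 (without Pippin) probe sets passed for HSA against hematoma, where the members are not counted. For osteosarcoma against hematoma 219 (without Kylie) to 4706 (without OSCA20) passed, with 0 to 5 members lower, NID1 counted. NID1 is not read as a result there, because it entered the set through the hematoma arrays. With all arrays, 4 of the 9 members other than NID1 were lower. HSA against osteosarcoma had 0 to 1 members lower (LAMA5 without OSCA20 and HSPG2 without OSCA71), golden retriever against other-breed lines 0 to 1 probe sets (1 without ChadG4 or DD1), leukemia against lymphoma 254 (without Forrest) to 1402 (without Fire), and T-zone against diffuse large B cell lymphoma 0 to 1 members higher (SPARC, without Snuggles). NID1 minus NID2 between HSA and osteosarcoma ranged from −3.62 to −1.20. Differences that turned sign between HSA and osteosarcoma were NID1 (−1.01 to 0.020) and COL4A2 (−0.067 to 0.34). Between HSA and hematoma LAMA5 (−0.051 to 0.023), LAMB1 (−0.72 to 0.038) and HSPG2 (−0.44 to 0.24) turned sign. LAMA4 (−0.81 without Rascal, to 0.99) and SPARC (−1.72 without Maddle, to 1.53) did so between leukemia and lymphoma. SPARC (−0.036 without Kaycee, to 1.15) also did between T-zone and diffuse large B cell lymphoma. The exclusions of Dal4 with ChadP9, and of Rascal, Maddle and Snuggles, were chosen after seeing the data. Where a group of 3 lost an array, the fit assumed that the rest vary like the other group. No paired analysis was possible because each dog gave 1 array, so that no dog was in more than 1 tumor type.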
